A study of Mus musculus with 14 samples.

Results

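The NRF2-KEAP1 axis was followed through 10 genes in mouse liver: the transcription factor Nfe2l2 (which encodes NRF2), its inhibitor Keap1, and the target genes Gclc, Gclm, Slc7a11, Txnrd1, Srxn1, Nqo1, Hmox1 and Osgin1. They were chosen by name, from what is known of the pathway, with earlier results of these data known. They make up 10 of the 17552 genes in the deposited table of gene counts. All 10 were among the 13291 genes that had at least 100 counts in both groups together. Livers came from male Apoe-deficient C57BL/6 mice, for which the labels give an age of 8 weeks, fed a Western diet alone (control, 7 libraries) or the same diet with erythrodiol, a pentacyclic triterpene alcohol of olive oil, at 10 mg/kg (7 libraries). The labels give 8 weeks of diet, whereas the methods of the study give a longer period. Each library was made from poly-A RNA of a pool of a few mice, and both groups were Apoe-deficient, so that nothing here describes a liver with that gene intact. Apoe itself still gave 9403 counts in the control and 8293 in the erythrodiol group, and with 1 count over the whole gene these do not check the deletion.

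NRF2 is a basic leucine zipper transcription factor that KEAP1, an adaptor of a CUL3 ubiquitin ligase, marks for degradation in resting cells. Electrophiles and oxidants modify cysteines of KEAP1, NRF2 then escapes degradation, enters the nucleus and binds antioxidant response elements together with a small MAF protein. In liver the pathway is known for glutathione synthesis, thioredoxin reduction, quinone reduction, heme breakdown and drug conjugation, and because NRF2 is regulated mostly at the protein level, the mRNA of its targets is commonly read as its output.

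The values were 1 expected count per gene and group, in which the 7 libraries were added up. No spread between libraries could be had for a gene, and no test between groups was possible. Levels are given as CPM, counts per 1000000 counts of the group, and intervals are 95% exact binomial (Clopper-Pearson) intervals that cover counting error only, so they are narrower than any interval that would include the variation between pools. The group totals were 122889032 and 124686047 counts. A library gave between 9.12% and 17.3% of the gene-mapped pairs in the control group and between 13.9% and 14.6% in the erythrodiol group. Hepatocyte markers summed to 101278 CPM in the control and 101767 CPM in the erythrodiol group over 8 genes, a sum that consists mostly of Alb (80551 and 77520 CPM). Of the 8 markers, 4 were more than 25% higher and none was more than 20% lower scaled by the totals, with a median log2 ratio of 0.27, beside 24.4% and 8.89% of all genes and their median of 0.16. No marker of that list was at 0.

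The ratio between groups moved with gene length across the whole table. Among genes with at least 100 counts, the median log2 ratio of erythrodiol to control was -0.06 among the 2660 shortest genes (333 to 1640 bases) and 0.30 among the 2658 longest (4675 to 26655 bases). Each of the 10 genes was therefore also compared with the 500 genes nearest to it in length, and the difference between its log2 ratio and their median is called the ratio relative to genes of like length. The source of the length trend was not tested. A gene was called higher or lower where its ratio was more than 25% above or more than 20% below 1 (on the relative scale, above or below the like-length median), which is the same distance on a log2 scale in both directions and is a limit on size, not a test.

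**Figure D1:**
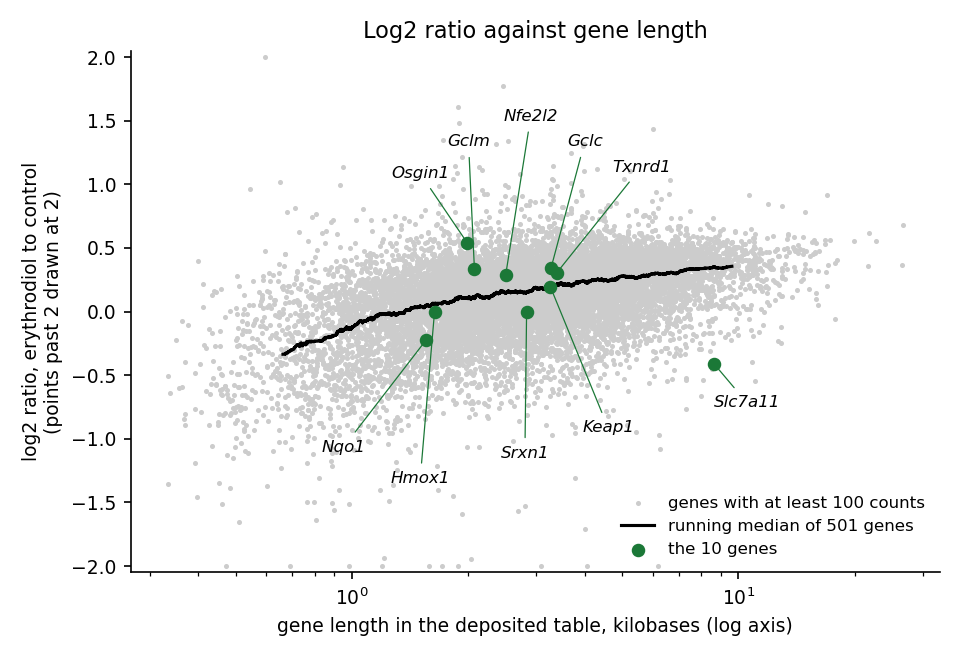
Log2 ratio of erythrodiol to control (y axis) against deposited gene length in kilobases (x axis, log scale), with grey points for the genes of at least 100 counts, a black running median, and green points for the 10 genes. Osgin1, at 0.54, lay far above the running median and Slc7a11, at -0.41, far below it, while Keap1, at 0.20, lay on it.

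Osgin1 was higher and Slc7a11 lower in the erythrodiol group, whereas the other 8 genes stayed within these limits of genes of like length. Scaled by the group totals, 3 of the 10 genes (Gclc, Gclm and Osgin1) were higher by more than 25%, and the same held for 24.4% of all 13291 genes. In the other direction 1 gene (Slc7a11) was lower by more than 20%, against 8.89% of all genes. Relative to genes of like length, 1 of 10 was higher (Osgin1, background 5.93%) and 1 of 10 was lower (Slc7a11, background 13.6%). Past 1.5-fold scaled by the totals, none was higher (background 2.55%) or lower (background 3.14%). Past 1.5-fold relative to genes of like length, none was higher (background 1.02%) and Slc7a11 was lower (background 3.53%). The last of these did not hold when the like-length genes were also matched in counts, which gave Slc7a11 a relative log2 ratio of -0.54. None of the 10 differed by 2-fold in either direction, neither scaled by the totals (background 0.218% higher and 0.549% lower) nor relative to genes of like length (0.15% and 0.466%). The median log2 ratio of the 10 genes was 0.24 against 0.16 over all genes, and relative to genes of like length it was 0.04 against -0.00038. Relative to genes of like length, 5 of the 10 were above 0, where 49.9% of all genes were.

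**Figure D2:**
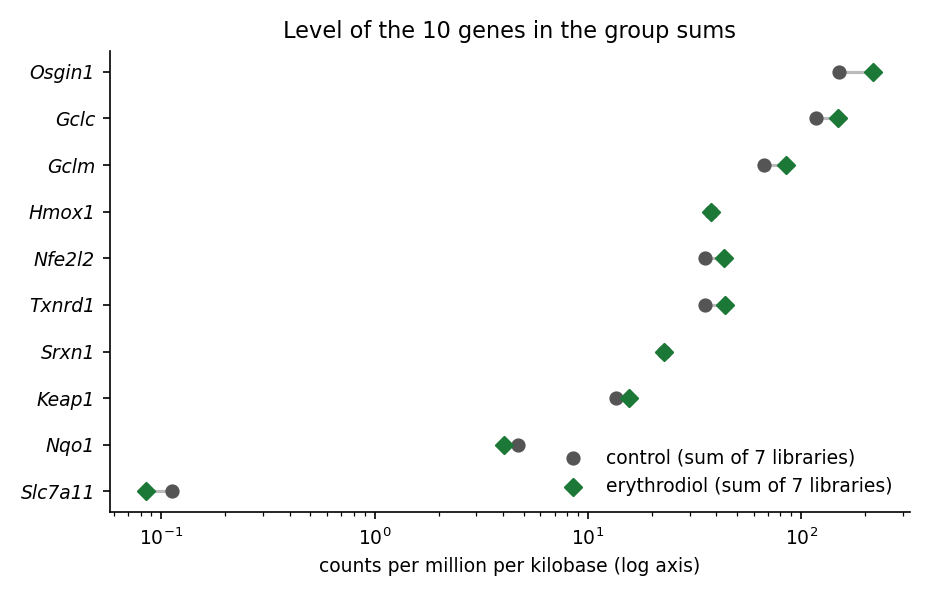
CPM per kilobase of gene for the 10 genes in the control and the erythrodiol group sums (log axis), 1 value per group with no spread between libraries. Osgin1 went from 150 to 218 CPM per kb, and the paired values of Srxn1 (22.7 in both) and Hmox1 (37.7 in both) lie on top of each other.

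Per kilobase of gene, Osgin1 had the highest level of the 10 genes in control livers, at 150 CPM per kb, followed by Gclc at 117 and Gclm at 67.2 CPM per kb. Hmox1 (37.7), Nfe2l2 (35.6) and Txnrd1 (35.6 CPM per kb) came next, and the counting intervals of Nfe2l2 (34.9 to 36.3) and Txnrd1 (35.0 to 36.2) overlapped. Srxn1 stood at 22.7, Keap1 at 13.6 and Nqo1 at 4.73 CPM per kb. Slc7a11 had the lowest level, 0.113 CPM per kb, above 22.3% of all genes in the table. In the erythrodiol group the order was that of the control group except in the middle, where Txnrd1 (44.0) and Nfe2l2 (43.5) lay above Hmox1 (37.7 CPM per kb). Again the intervals of Txnrd1 (43.4 to 44.6) and Nfe2l2 (42.8 to 44.2 CPM per kb) overlapped.

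The regulators of the axis were slightly higher or at the level of genes of their length. Nfe2l2 (chr2:75675513-75704663 of GRCm38, minus strand) had 10924 counts (88.9 CPM) in the control and 13544 counts (109 CPM) in the erythrodiol group. Its log2 ratio was 0.29 (95% counting interval 0.25 to 0.33), and the 500 genes of like length had a median log2 ratio of 0.15, which left a relative log2 ratio of 0.14, above 79.2% of them. Keap1 (chr9:21229730-21239332, minus strand) had 5446 counts (44.3 CPM) and 6332 counts (50.8 CPM), a log2 ratio of 0.20 that was the median of its like-length genes. Exons of Keap1 overlap those of the antisense gene Gm16754, and whether the libraries kept the strand is not given in the sources used here. Of these regulators Nfe2l2 had the higher relative ratio, and neither passed the limit.

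The 2 subunits of glutamate-cysteine ligase, the rate-limiting enzyme of glutathione synthesis, showed like ratios. Gclc, the catalytic subunit (chr9:77754535-77794489, plus strand), had 47238 counts (384 CPM) in the control and 60803 counts (488 CPM) in the erythrodiol group. The ratio was 1.27-fold, a log2 ratio of 0.34 (0.33 to 0.36). Gclm, the modifier subunit (chr3:122245487-122267215, plus strand), had 17122 counts (139 CPM) and 21953 counts (176 CPM), a ratio of 1.26-fold and a log2 ratio of 0.34 (0.31 to 0.37). The counting intervals of both ratios overlapped. Because genes of the length of Gclc were themselves higher (median log2 ratio 0.20) and those of the length of Gclm less so (0.11), the relative log2 ratio was 0.14 for Gclc and 0.23 for Gclm. These lay above 73.8% and 87.6% of the like-length genes, respectively.

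A further transcript of Gclm was deposited among the new transcripts of the study, with 3 exons and 1376 bases from 122245557 to 122257430 on chromosome 3. The third exon of this transcript (chr3:122256676-122257430) covers the pseudogene Gm6061, whose transcript of 492 bases matched that of Ppia, a cyclophilin gene, at 491 bases. Ppia, looked at after its values were seen, went from 708 to 502 CPM (log2 ratio -0.50), the opposite direction to Gclm. Both Gclm and Ppia had whole-number counts in both groups, and whether reads were shared between them was not tested.

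Slc7a11, the cystine importer that feeds glutathione synthesis, had the lowest ratio of the 10 genes. It is the longest of them at 8649 bases in the deposited table (chr3:50364936-50499087, minus strand). It had 120 counts (0.977 CPM) in the control and 91.5 counts (0.734 CPM) in the erythrodiol group, a ratio of 0.752 with a wide counting interval (0.570 to 1.00). Genes of its length (7330 to 10178 bases) had a median log2 ratio of 0.34, so the relative log2 ratio was -0.75, below all but 1% of the 500. With 120 counts over 7 libraries the depth does not settle the size of the difference. Its counts were not whole numbers, unlike those of the other 9 genes, which means that reads were divided between features when the expected counts were estimated.

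**Figure D3:**
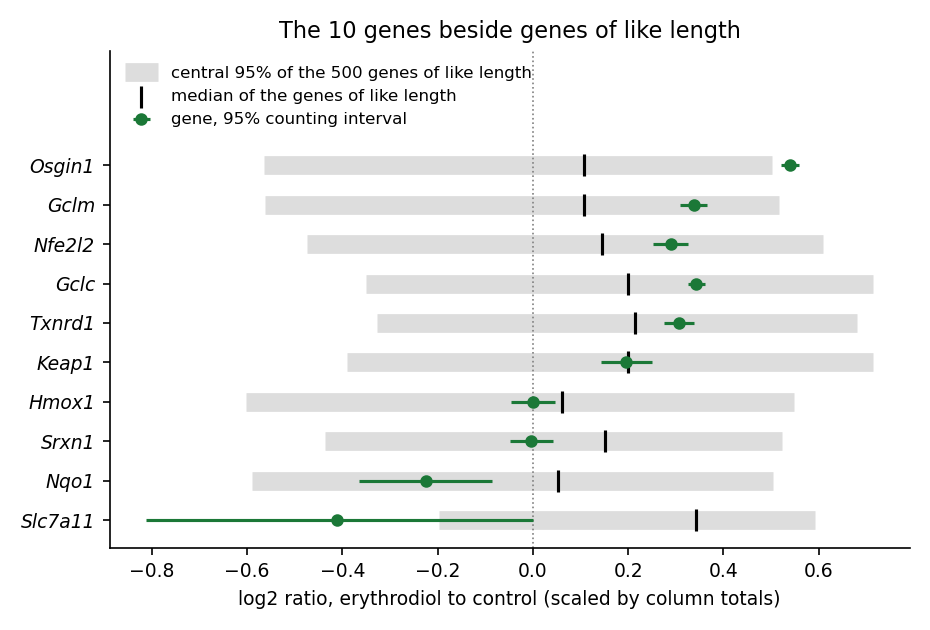
Log2 ratio of erythrodiol to control for each of the 10 genes with its 95% counting interval, beside the median and central 95% of the 500 genes nearest in length. Osgin1 (0.54) lay above the central 95% of its like-length genes (-0.56 to 0.50) and Slc7a11 (-0.41) below that of its own (-0.20 to 0.59), and the other 8 lay inside.

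In the thioredoxin arm neither the reductase nor sulfiredoxin passed the limit. Txnrd1, the cytosolic thioredoxin reductase (chr10:82833951-82897724, plus strand), had 14815 counts (121 CPM) in the control and 18595 counts (149 CPM) in the erythrodiol group, 1.24-fold (1.21 to 1.26), with a relative log2 ratio of 0.09. Srxn1, which reduces overoxidised peroxiredoxins (chr2:152105524-152111376, plus strand), had 7905 counts (64.3 CPM) and 8001 counts (64.2 CPM), a ratio of 0.998 (0.967 to 1.03). Its like-length genes had a median log2 ratio of 0.15, and Srxn1 lay above 26.2% of them.

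Nqo1, the quinone reductase that is the most used reporter of NRF2 activity, was not higher in the erythrodiol group. The gene (chr8:107388225-107403205, minus strand) had 902 counts (7.34 CPM) in the control and 783 counts (6.28 CPM) in the erythrodiol group, a ratio of 0.856 (0.776 to 0.943). The relative log2 ratio was -0.28, above 20.2% of like-length genes, and did not pass the limit.

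Hmox1, heme oxygenase 1, had the same level in both groups when scaled by the totals, and is known to be expressed in liver macrophages as well as hepatocytes. The gene lies at chr8:75093618-75100593 (plus strand). Its counts were 7572 (61.6 CPM) and 7685 (61.6 CPM), a ratio of 1.00 (0.969 to 1.03) and a relative log2 ratio of -0.06. Macrophage markers moved in these sums: 6 of 10 were lower and 1 was higher scaled by totals (background 8.89% and 24.4%), and their summed level was 1057 CPM in the control and 710 CPM in the erythrodiol group, with none at 0. Their part in the value of Hmox1 was not tested, and in bulk liver fewer cells of a type and less RNA per cell cannot be told apart. The directions of Hmox1 and Srxn1 depended on the scaling, as their log2 ratios ran from -0.16 to 0.14 and from -0.17 to 0.13 over the alternatives tried.

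Osgin1, an oxidative stress-induced growth inhibitor, had the largest difference of the 10 genes scaled by the totals. The gene (chr8:119425882-119446257, plus strand) had 36621 counts (298 CPM) in the control and 54013 counts (433 CPM) in the erythrodiol group, 1.45-fold (1.43 to 1.47). Relative to genes of like length it was 1.35-fold higher (log2 0.43), above 97.6% of them. If 1 erythrodiol pool alone had carried the difference, with the other 6 at the control level, that pool would have had to be 4.10 to 4.25 times the control level, depending on which library it was. Whether 1 pool or all 7 carried it cannot be told apart from group sums. A new transcript of Osgin1 with 8 exons and 2185 bases was deposited, from 119434135 to 119446256, and Srxn1 also had one, with 2 exons and 2603 bases. No splicing event deposited for the series fell in any of the 10 genes.

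Promoter sequences show how the genes compare at the element that NRF2 and small MAF proteins bind. RefSeq windows of GRCm38.p6, from 250 bases before to 50 after an annotated start, were held for 8 of the 10 genes, the exceptions being Gclc and Hmox1. The windows of Osgin1 and Slc7a11 lie inside these genes, downstream of their outermost starts, which were not searched. The core TGACNNNGC, searched on both strands, occurred in the windows of 4 of the 8 genes (Nfe2l2, Gclm, Srxn1 and Txnrd1), and in those of 14.0% of the 27025 genes with a window (12.4% of all 32851 windows). The looser TGANNNNGC, which contains the core, occurred in 7 of the 8, all but Nqo1, and in 45.05% of all genes with a window. The core preceded by A or G occurred in Txnrd1 only, against 7.20% of genes. Sequence more than 250 bases before the start was not searched, for Nqo1 or any other gene. Txnrd1 has 3 windows, for alternative starts, of which 1 holds the core. The stretches below hold matches upstream of the start for 3 genes with the core and for Osgin1 and Srxn1. Osgin1 and Srxn1 carry the same match to the looser pattern, at ratios of 1.45 and 0.998 scaled by the totals. Core and looser are names of search patterns only, and binding of NRF2 to either was not tested. The stretches are written 5′ to 3′ on the strand of the gene, with the match in capitals (a match that begins with GC is on the opposite strand). The coordinates are chr2:75704875-75704913 (minus strand) for Nfe2l2, chr3:122245403-122245451 (plus) for Gclm, chr10:82859094-82859142 (plus) for Txnrd1, chr8:119437028-119437076 (plus) for Osgin1 and chr2:152105459-152105507 (plus) for Srxn1.
Nfe2l2: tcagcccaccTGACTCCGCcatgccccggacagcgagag
Gclm: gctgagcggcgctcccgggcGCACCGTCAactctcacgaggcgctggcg
Txnrd1: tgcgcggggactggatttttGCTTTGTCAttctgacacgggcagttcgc
Osgin1: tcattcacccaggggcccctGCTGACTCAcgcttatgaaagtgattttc
Srxn1: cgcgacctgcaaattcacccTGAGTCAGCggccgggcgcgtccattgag

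Read on its own strand, the element of Osgin1, 99 bases before the start, and that of Srxn1, 45 bases before it, are both TGAGTCAGC, which occurred in 136 of the 32851 windows (0.414%). Whether these letters have a part in the ratio of either gene was not tested, and Srxn1 has looser matches further upstream as well. The Srxn1 match to the core itself lies past the start site, at position 29. A window shows only these letters over 300 bases, and the new Osgin1 transcript begins upstream of the RefSeq window used here (chr8:119436897-119437196).

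The other regulators and partners of NRF2 were 15 genes, all with at least 100 counts. Scaled by the totals, 6 were higher and 1 lower (background 24.4% and 8.89%), with a median log2 ratio of 0.25 beside 0.16 over all genes, and relative to genes of like length none passed in either direction, with a median of 0.05. The small MAF partners gave log2 ratios of 0.40 (Mafg), 0.19 (Mafk) and -0.07 (Maff), and relative ratios of 0.11, 0.02 and -0.19. Bach1, a repressor that competes for the same elements, had 0.41 scaled by totals and 0.13 relative to genes of like length. Of the ubiquitin ligase that KEAP1 serves, Cul3 had a relative log2 ratio of 0.05 and Rbx1 of -0.27. Sqstm1, the autophagy receptor that binds KEAP1, had 0.06 on the same relative scale, and Dpp3 and Pgam5, which also bind KEAP1, had 0.10 and 0.02. The coactivators Ep300 and Crebbp had 0.54 and 0.46 scaled by totals, but 0.20 and 0.11 relative to genes of like length. Gsk3b and Btrc, of the KEAP1-independent degradation of NRF2, had relative log2 ratios of 0.04 and 0.14, the related factor Nfe2l1 of -0.01, and Park7, which is known to stabilise NRF2, of -0.20.

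The other target classes did not share a direction. Over 6 lists of further targets and the regulators, 82 of 85 genes had at least 100 counts. Scaled by totals, 16 were higher (19.5%) and 11 lower (13.4%), beside 24.4% and 8.89% of all genes. Relative to genes of like length, 7 were higher (8.54%) and 10 lower (12.2%), beside the 5.93% and 13.6% of all genes, and the median relative log2 ratio was 0.04.

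Among genes of glutathione synthesis and transfer, 2 of 20 were higher and 5 lower scaled by the totals (background 24.4% and 8.89%). Relative to genes of like length, 4 of 20 were higher and 2 lower (background 5.93% and 13.6%). The 2 genes of this list with the most counts were Mgst1, the microsomal transferase, and Gstm1. Mgst1 had 483806 counts in the control and 319152 in the erythrodiol group (relative log2 ratio -0.49). Gstm1 had 276394 and 350388 counts (0.34). The pi-class transferases Gstp1 (221390 and 293236 counts, 0.62) and Gstp2 (831 and 1410 counts, 0.97) were higher, as was Gsta4 (0.38), which conjugates lipid aldehydes. The other lower gene was Gpx4, which reduces lipid hydroperoxides (45514 and 32778 counts, -0.36), named after its values were seen. Gstm1, Gstp1 and Gstp2 have close paralogs and counts that are not whole, so their split between copies is uncertain.

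In the thioredoxin system none of 9 genes was higher and 2 were lower relative to genes of like length (background 5.93% and 13.6%). The lower genes were Prdx1 (155198 and 113238 counts, -0.51) and Txn1 (27218 and 19962 counts, -0.39). Prdx1 is a peroxiredoxin and Txn1 the thioredoxin that Txnrd1 reduces. Txnrd1 and Txn1 had log2 ratios of 0.31 and -0.47 scaled by totals, and 0.09 and -0.39 relative to genes of like length. Prdx6 had a relative log2 ratio of 0.13. Among NADPH supply genes none of 8 passed in either direction, with H6pd at 0.05 and Idh1 at -0.29.

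Among quinone and carbonyl detoxification genes 2 of 15 were higher and 2 lower relative to genes of like length (background 5.93% and 13.6%). Ephx1, the microsomal epoxide hydrolase (58151 and 80665 counts, 0.39), and Cbr1, a carbonyl reductase (0.42), were higher. Its relative Cbr3 was lower (349 and 134 counts, -1.38), as was Ptgr1 (514 and 421 counts, -0.34), and Cyp2a5 had 0.20. Cbr3 was the farthest from 0 of the genes in these 6 lists and the regulators with at least 100 counts. Gstp2 (0.97) and Gstp1 (0.62), which came next, were higher. Of these 82 genes, 47 were above 0 relative to genes of like length, where 49.9% of all genes were.

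In heme and iron handling 1 of 9 was higher and 1 lower relative to genes of like length (background 5.93% and 13.6%). The ferritin light chain Ftl1 had 305100 and 380899 counts (0.44), though its counts were not whole, and the heavy chain Fth1 had 0.31. Blvra, the biliverdin reductase that acts on the product of HMOX1, was lower (1940 and 1498 counts, -0.38). Of the 6 efflux transporters 1 was higher (Abcc2) and none lower scaled by totals (background 24.4% and 8.89%). Relative to genes of like length none was higher and 3 were lower: Abcc4 (-0.53), Abcg2 (-0.39) and Abcc1 (-0.36). Scaled by totals these 3 had log2 ratios of -0.26, -0.28 and -0.06. Abcc2, the canalicular conjugate exporter, had a log2 ratio of 0.47 scaled by totals and 0.21 relative to genes of like length, and Abcc3 had -0.11.

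**Figure D4:**
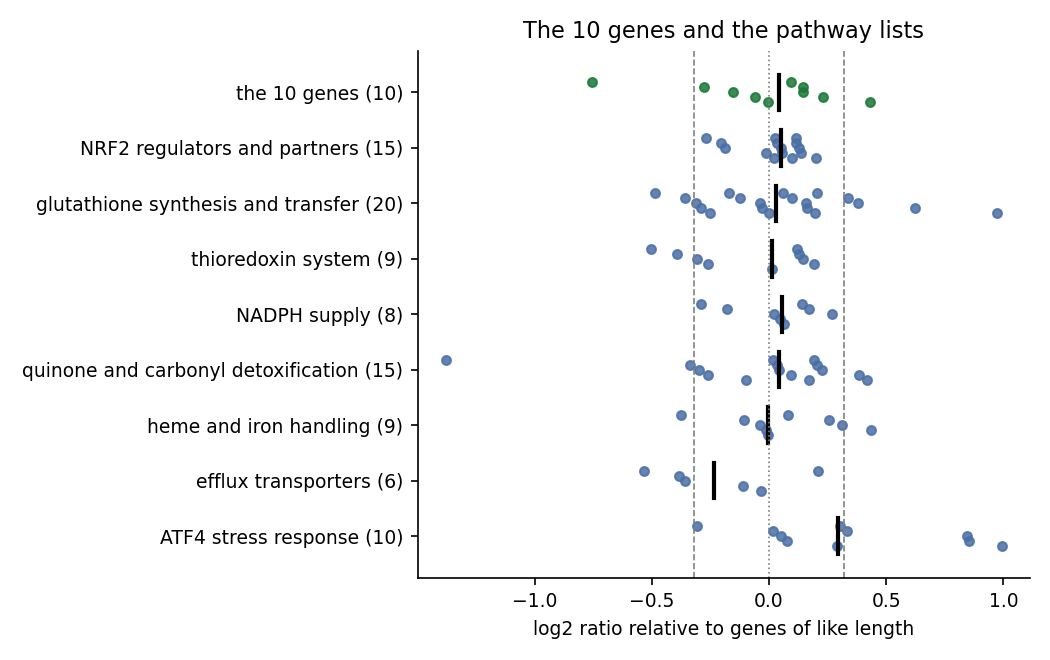
Log2 ratio relative to genes of like length for the 10 genes and for the members of each pathway list with at least 100 counts, 1 point per gene. The points of the NRF2 lists lie on both sides of 0, from Cbr3 at -1.38 to Gstp2 at 0.97, and 9 of the 10 genes of the ATF4 list lie above 0.

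Slc7a11 is also known as a target of ATF4, the factor of the response to amino acid shortage and unfolded proteins, for which 10 genes were listed. Relative to genes of like length 4 of 10 were higher and none lower (background 5.93% and 13.6%), with a median of 0.30. Phgdh and Psat1 make serine, Asns makes asparagine and Chac1 degrades glutathione. Phgdh had 271 counts in the control and 586 in the erythrodiol group (0.99), Asns 1134 and 2243 counts (0.85), Psat1 518 and 1019 counts (0.85) and Chac1 636 and 836 counts (0.33). Atf4 itself, which had the most counts of this list, had 9884 and 12880 counts (0.30). The ratio of Slc7a11 lay in the other direction from these 5 genes and in the direction of Atf3 (743 and 656 counts, -0.31), which did not pass the limit and was named after its values were seen.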

How the data were processed

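Liver poly-A RNA was sequenced in 7 control and 7 erythrodiol pools. The authors deposited, per gene, an expected count for each group, made with Bowtie2 and RSEM against reference transcripts merged with the new coding transcripts, and summed over the 7 libraries without normalization. The same table holds the authors' own ratio, p-value and q-value per gene, which were not used. For each library the authors deposited counts of clean reads and the percent of them mapped to genes. Versions of the tools are not given in the sources used here. No deposited column of per-library gene values was found, so the planned descriptions of group sums were used and no test was run.

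The counts were scaled by the column totals to CPM. A log2 ratio relative to genes of like length subtracts the median of the 500 genes nearest in length, among genes whose control and erythrodiol counts add up to 100 or more. Differences were counted past 25% higher or 20% lower. Intervals for ratios are 95% exact binomial and those for levels 95% exact Poisson, covering counting error only. Coordinates are of GRCm38, the build of the deposited new transcripts. Motifs were searched in 300-base RefSeq windows, and the Gm6061 and Ppia transcripts were aligned with biopython 1.88. The ratio computation was tested on simulated data. The software was matplotlib 3.10.9, scipy 1.17.1, pandas 2.3.3 and numpy 2.4.6 under Python 3.11.15.

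The 10 genes and the lists were chosen with earlier results of these data known. Named were the 10 genes, the 15 regulators, and in every other pathway list the 2 genes with the most counts and up to 4 farthest past these limits relative to genes of like length, with Ppib and Tbp. Apoe, Ppia, Gm6061, Gpx4, Atf3 and single marker genes were named outside this rule. Alternatives were other scalings, a pseudocount, other folds, other like-length sets and other motifs.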

Additional observations from a re-analysis of the deposited data

Results flagged for a closer look

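In control replicate 3, 64.3% of the clean reads mapped to genes, far from the other 6 control libraries, which ranged from 74.4% to 81.4%. It was 1 of 6 sets of libraries examined for a value far from the rest, and chance marks about 1 in 20 such sets. This library gave 9.12% of the gene-mapped pairs of the control group. The gene values are sums over the group, so none of the 10 genes has a value without it.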

How the results depend on the processing

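Scaling by the median gene, leaving out the 20 genes with the most counts, and scaling by the study's reference genes Ppib and Tbp shifted every log2 ratio by -0.16, -0.08 and 0.14, respectively. The reference genes themselves had log2 ratios of -0.59 (Ppib) and 0.31 (Tbp). Under these 3 scalings the median log2 ratio of the 10 genes went from 0.24 to 0.081, 0.16 and 0.38. The number more than 25% higher went from 3 to 1, 1 and 6, and the number more than 20% lower from 1 to 2 with the median gene and 0 with the reference genes. At folds of 1.5 and 2 none was higher or lower scaled by totals, none was higher relative to genes of like length, and Slc7a11 was lower at 1.5 but 0 were lower at 2. With like-length genes also matched in counts its relative log2 ratio was -0.54, short of 1.5-fold. The relative log2 ratio kept its sign for all 10 genes under the 5 alternatives run on it, from 0.40 to 0.46 for Osgin1 and from -0.77 to -0.54 for Slc7a11. Of the single-gene values scaled by totals, 15 moved by less than their counting interval under an alternative and 25 by more, and of the relative ones 42 and 8. The alternatives to scaling by totals included a pseudocount of 1 in each group, under which all 10 genes stayed within their intervals. Under the 3 scalings only Slc7a11, and Nqo1 except with the median gene, did so. Genes with a promoter match went from 4 to 7 with TGANNNNGC and 1 with A or G before the core. No paired analysis was possible because each gene has 1 sum per group and no result comes from a test, and for the same reason no replicate could be left out. Depth limits Slc7a11 most.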

Other observations

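Other cell types than macrophages also moved in the group sums. Neutrophil markers summed to 13.2 CPM in the control and 4.88 CPM in the erythrodiol group, and the 3 of 8 with at least 100 counts were all lower relative to genes of like length. The background for all counts of markers in this paragraph is 13.6% of all genes lower and 5.93% higher. Bile duct markers summed to 117 and 79.3 CPM, and 5 of 5 were lower on the same scale. Erythroid markers summed to 1264 and 929 CPM (3 of 6 lower), lymphocyte markers to 33.6 and 28.4 CPM (4 of 7 lower and 1 higher) and pancreas acinar markers to 15.0 and 10.6 CPM (2 of the 3 with at least 100 counts lower). The acinar sum consists mostly of Cela1 (12.8 and 8.93 CPM), and other acinar genes, named after their values were seen, had more counts in the erythrodiol group: Ctrb1 had 8 and 42, Cpa1 2 and 15, and Cela3b 3 and 11. Stellate cell markers summed to 548 and 525 CPM (2 of 8 lower) and endothelial markers to 193 and 213 CPM (0 of 6 past the limits in either direction). Relative to genes of like length, 8 of 10 macrophage markers were lower and 1 higher. No marker of these lists was at 0 in both groups.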
